A study of Mus musculus with 24 samples.

Results

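Potassium channel subunits were followed in both hemispheres of the mouse brain after experimental stroke and after sham surgery. The members were all genes whose array symbol began with 1 of 15 prefixes of pore-forming and beta subunits (Kcna to Kcnt) followed by a digit, which gave 74 of the 19505 genes measured, each with 1 probe set. Of these, 73 code for subunits and 1, Kcnq1ot1, is a long non-coding RNA of the Kcnq1 locus whose symbol matches by its letters.

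All animals were male C57Bl/6j mice, 8 to 10 weeks old, and the labels name no transgene. In 8 of them a middle cerebral artery was closed for 90 min by the intraluminal method (MCAO), and tissue was taken 30 min later, 2 h from the start of ischaemia. The other 4 had sham surgery. After perfusion with saline, the ipsilateral (IP) and contralateral (CL) hemispheres each gave 1 array, which made the groups MCAO IP, MCAO CL, sham IP and sham CL. A whole hemisphere holds tissue within and outside the territory of the closed artery, and in such bulk RNA fewer cells of a type and less RNA per cell cannot be told apart.

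Potassium channels let potassium leave the cell and so set the resting potential, repolarise the action potential and tune firing. Voltage-gated subunits assemble as tetramers, inward rectifiers and tandem-pore channels carry resting and leak currents, and other families open with intracellular calcium or sodium. In ischaemic brain, failing energy supply is known to raise extracellular potassium within minutes, and astrocytes take potassium up through inward rectifiers.

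Signals are log2 values. On 20 of the 24 arrays the profiles lay close together (median Pearson correlation across probe sets 0.981 to 0.989). Both hemispheres of mouse 3 after MCAO and of mouse 1 after sham surgery stood apart, at 0.328 to 0.55, with positive controls averaging 4.69 to 5.01 against 6.51 to 6.74. Results are therefore given on 20 arrays, from 7 MCAO and 3 sham mice, with values on all 24 beside the counts and beside the differences of genes whose signals are given per group. A signal counted as above background when it was higher than 95% of the negative controls on the same array. That level was 5.17 to 5.74 on the 20 and 7.41 to 7.61 on the 4 that stood apart. By that criterion 8 of 8 neuronal, 6 of 6 astrocyte and 5 of 5 measured oligodendrocyte markers, the cells of the labelled tissue, were above background on at least 10 of 20 arrays. Of the choroid plexus markers, Ttr among them, 0 of 7 were.

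Among the members, 36 of 74 were above background on all 20 arrays, 15 on 1 to 19 and 23 on 0. All 3 Kcnc and both Kcnt genes, 5 of 8 Kcna, 5 of 8 Kcnh, 7 of 15 Kcnj and 4 of 14 Kcnk genes were so on all 20. The members above background on 0 arrays included 7 Kcnk, 5 Kcnj and 3 of 4 Kcnmb genes. All 74 entered the tests, whatever their signal.

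The first comparison asked which channel genes differed between the hemisphere of the closed artery and the opposite one within MCAO mice. In limma, with mouse as a block and Benjamini-Hochberg adjustment over 22206 probe sets, 0 of 74 members passed an adjusted p of 0.05, beside 0.135% of all probe sets. On 24 arrays 0 passed as well, beside 0.0856%. At an unadjusted p under 0.05 there were 9 members, 6 higher and 3 lower on the MCAO IP side, a share of 12.2% beside 7.10% of all probe sets. On 24 arrays 4 did so (5.41% beside 4.13%). Of the 9 members, 4 were among the 44 above background on at least 10 of 20 arrays, beside 549 of 9092 such probe sets. The others, Kcna7, Kcnj2, Kcnk5, Kcnk6 and Kcnk16, were above background on 0 to 3 of 20 arrays. The median side difference (IP minus CL) over the members was -0.04 on 20 arrays and -0.01 on 24, with 31 of 74 positive on the 20. Over all probe sets it was -0.00, with 10748 of 22206 positive.

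For the 44 members above background on at least 10 of 20 arrays, the 95% confidence interval of the side difference lay within 0.3 log2 units of 0 in 28 and within 0.5 in 42. Intervals of Kcnh4 and Kcnj16 reached further. Such intervals bound a difference and do not show that the hemispheres were alike, and the number of arrays limits the precision. In what follows, 3 values for an MCAO group are the lowest, the median and the highest of 7 mice, 3 values for a sham group are its 3 mice, and a difference is given ± SE with its 95% interval.

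**Figure D1:**
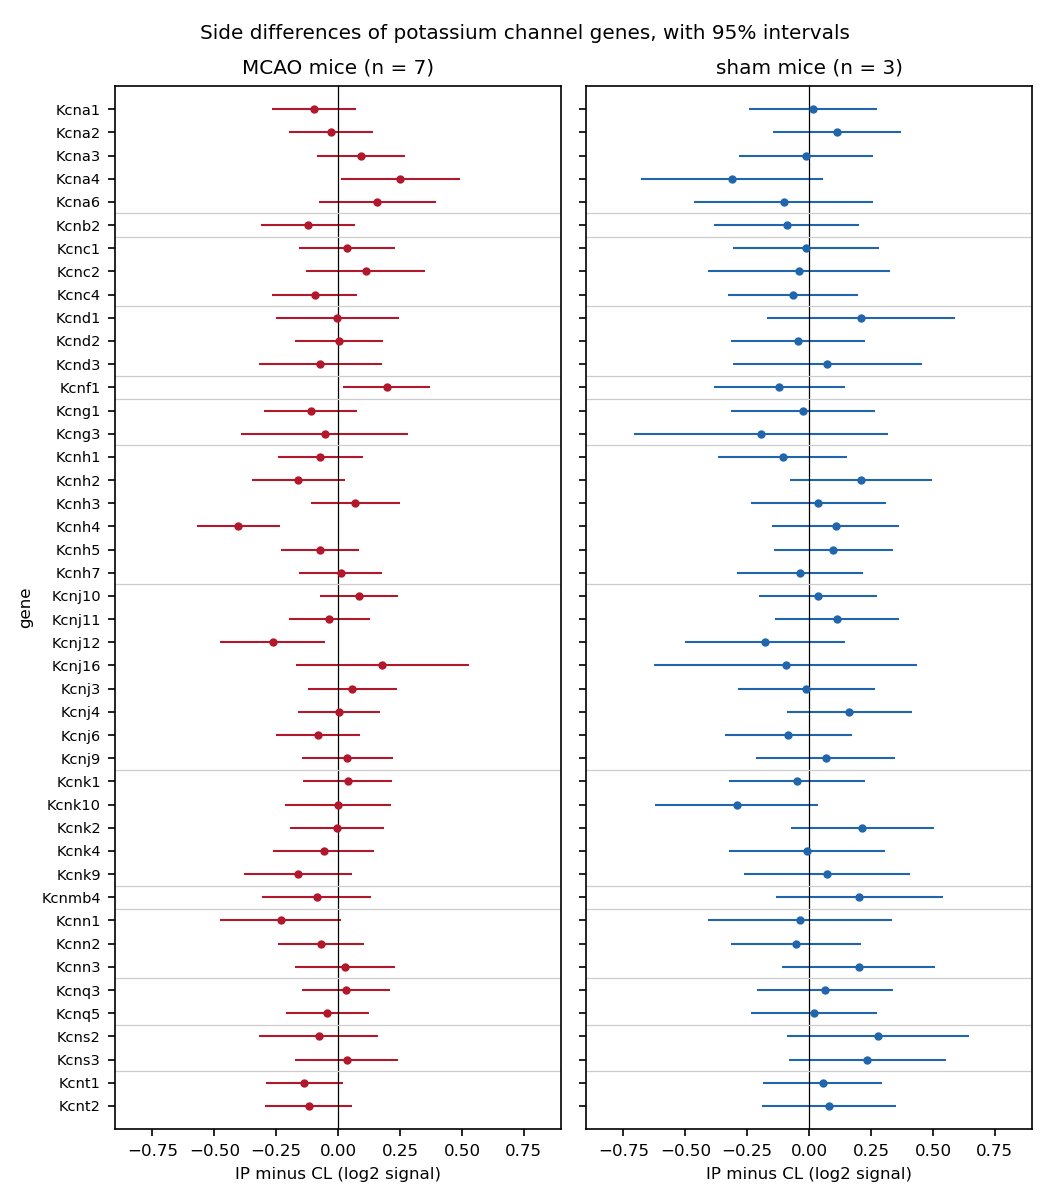
Side differences (log2 signal, IP minus CL) of the 44 potassium channel genes above background on at least 10 of 20 arrays, in 7 MCAO mice (left) and 3 sham mice (right). Points are limma estimates and bars 95% confidence intervals. In MCAO mice Kcnh4 lies lowest at -0.40 and Kcna4 highest at 0.25.

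The sequences upstream of Kcnh4 and Kcnj2 are shown because these genes had the lowest side difference among the 44 members above background on at least 10 arrays and the highest among all 74. The choice thus draws on 2 different sets of members. Highest among the 44 was Kcna4, and lowest among all 74 was Kcnk6, and neither window is shown. They are the 250 bases before the annotated start in RefSeq (build GRCm38.p6), chr11:100759779-100760028 on the minus strand and chr11:111065914-111066163 on the plus strand, written 5′ to 3′. Capitals mark the core of the hypoxia response element, ACGTG or GCGTG on either strand, and overlapping matches run together.
Kcnh4: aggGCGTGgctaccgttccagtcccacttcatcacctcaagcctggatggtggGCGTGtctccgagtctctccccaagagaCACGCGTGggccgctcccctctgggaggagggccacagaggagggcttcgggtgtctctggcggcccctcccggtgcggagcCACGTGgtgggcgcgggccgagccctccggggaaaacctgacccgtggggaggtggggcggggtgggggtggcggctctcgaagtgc
Kcnj2: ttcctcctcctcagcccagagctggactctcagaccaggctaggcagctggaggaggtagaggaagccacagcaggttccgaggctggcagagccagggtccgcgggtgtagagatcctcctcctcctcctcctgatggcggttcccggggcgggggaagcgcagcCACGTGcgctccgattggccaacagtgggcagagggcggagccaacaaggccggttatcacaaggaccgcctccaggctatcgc

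The Kcnh4 window held 4 separate stretches with this core and the Kcnj2 window 1. Of 32851 RefSeq windows of the same length, 38.6% held at least 1 stretch and 1.42% held at least as many as Kcnh4. Among the windows of members, 26 of 72 held at least 1, and these 72 windows belong to 58 members. Neither window held the cyclic AMP response element TGACGTCA, the AP-1 motif TGANTCA or the Egr motif GCGNGGGCG, searched on both strands, which 1.55%, 6.75% and 4.70% of all windows held. Windows of Kcna4, Kcnf1 and Kcnj12 held none of the 4 motifs. These are matches of letters, and binding was not tested.

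Kcnh4 codes for a voltage-gated subunit of the ELK branch of the ether-a-go-go family. Its signal was 5.14, 5.60 and 5.91 on MCAO IP arrays, against 5.45, 5.94 and 6.22 on MCAO CL arrays. In sham mice it was 6.07, 5.98 and 5.63 on sham IP arrays, against 5.97, 5.98 and 5.40 on sham CL arrays. The MCAO groups overlapped, but within each of the 7 mice the IP side was the lower one, by 0.19 to 0.63 log2 units. The difference was -0.40 ± 0.08 (-0.57 to -0.24), with an adjusted p = 0.0854. It was above background on 4 of 7 MCAO IP and 6 of 7 MCAO CL arrays, and no fold is given.

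When only the 9996 probe sets above background on at least 3 arrays were tested, the adjusted p of Kcnh4 was 0.00689, and 1 of the 48 members kept passed, beside 0.710% of those probe sets. Over all alternatives other than leaving out single mice its adjusted p ranged from 0.00689 to 0.94, and on 24 arrays the difference was -0.23 ± 0.15. In sham mice the side difference was 0.11 ± 0.12, and in MCAO mouse 3, whose arrays stood apart, it was 0.98. Markers of striatal neurons, which lie in the territory of that artery, had positive side differences in 4 of 4 measured genes after MCAO, with a median of 0.13 and 0 called. Their summed linear signal spanned 802 to 2598 on MCAO IP and 644 to 2566 on MCAO CL arrays, and its part in the Kcnh4 difference was not tested.

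Side differences of the relatives of Kcnh4 were closer to 0, and differences between genes were not tested. The ERG-type gene Kcnh2 was at -0.16 ± 0.09 and lower in 5 of 7 mice, and Kcnh7 of the same branch at 0.01 ± 0.08. The EAG-type genes Kcnh1 and Kcnh5 were at -0.07 ± 0.08 and -0.07 ± 0.07 (0.0149 and 0.0155 on 24 arrays), and Kcnh3, an ELK-type gene like Kcnh4, was at 0.07 ± 0.08. Kcnh6 and Kcnh8 were above background on 0 of 20 arrays, at -0.08 and 0.18.

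A tandem-pore leak channel gene, Kcnk6, was also lower on the IP side in 7 of 7 mice. Its signal was 4.35, 4.77 and 5.25 on MCAO IP arrays, against 5.01, 5.30 and 5.42 on MCAO CL arrays. In sham mice it was 5.36, 4.97 and 5.26 on sham IP arrays, against 5.20, 5.28 and 4.99 on sham CL arrays, and the groups overlapped. The side difference after MCAO was -0.42 ± 0.10 (-0.62 to -0.21, adjusted p = 0.225) and -0.35 on 24 arrays. In MCAO mouse 3, whose arrays stood apart, it was 0.12. Kcnk6 was above background on 0 of 7 MCAO IP and 1 of 7 MCAO CL arrays, so that no fold is given.

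Kcnt1, which codes for a sodium-activated channel of neurons, was the remaining member lower in each of the 7 MCAO mice. It had 7.40, 7.67 and 7.73 on MCAO IP arrays, against 7.64, 7.75 and 7.90 on MCAO CL arrays. Sham mice had 7.62, 7.73 and 7.85 on sham IP arrays, against 7.66, 7.68 and 7.69 on sham CL arrays. The difference was small, at -0.14 ± 0.07 (-0.29 to 0.02, adjusted p = 0.79), and -0.17 on 24 arrays. Its relative Kcnt2 was at -0.12 ± 0.08 and lower in 6 of 7 mice. In all, 3 of 74 members had 1 sign in each of the 7 MCAO mice (4.05%), beside 2.45% of all probe sets. In MCAO mouse 3, whose arrays stood apart, Kcnt1 was also lower on the IP side, at -0.40, but Kcnh4 and Kcnk6 were higher.

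**Figure D2:**
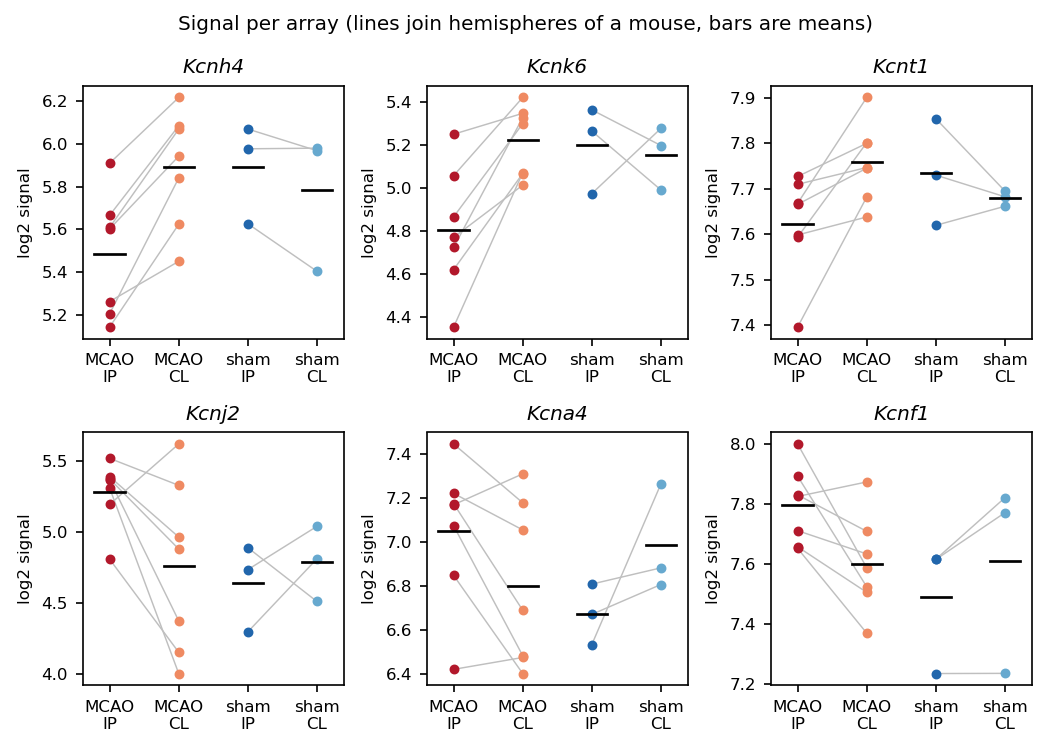
Log2 signal on each of the 20 arrays for 6 channel genes, in the order MCAO IP, MCAO CL, sham IP and sham CL. Points are arrays, black bars group means, and grey lines join the hemispheres of a mouse. Kcnh4, Kcnk6 and Kcnt1 are lower on the IP side in 7 of 7 MCAO mice, and Kcnj2 and Kcnf1 are higher in 6 of 7 mice.

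Kcnj2 codes for a strong inward rectifier of neurons and vascular cells. Its signal was 4.81, 5.37 and 5.52 on MCAO IP arrays, against 4.00, 4.88 and 5.62 on MCAO CL arrays. In sham mice it was 4.29, 4.73 and 4.89 on sham IP arrays, against 4.81, 5.04 and 4.51 on sham CL arrays. The IP side was higher in 6 of 7 mice after MCAO, and the ranges of the sides overlapped. At 0.52 ± 0.17 (0.15 to 0.90, adjusted p = 0.506) it had the highest side difference among the members, and 0.46 on 24 arrays. It was above background on 2 of 7 MCAO IP, 1 of 7 MCAO CL, 0 of 3 sham IP and 0 of 3 sham CL arrays, and no fold is given. Another strong rectifier, Kcnj12, had 5.64, 6.05 and 6.27 on MCAO IP arrays, 6.09, 6.25 and 6.55 on MCAO CL arrays, 6.29, 6.17 and 6.21 on sham IP arrays and 6.35, 6.53 and 6.32 on sham CL arrays. It was lower on the MCAO IP side in 6 of 7 mice, with overlapping MCAO sides, at -0.26 ± 0.10 (-0.48 to -0.05, adjusted p = 0.578) and -0.20 on 24 arrays. In sham mice IP was the lower side of Kcnj12 too, with side differences of -0.05, -0.36 and -0.11. Kcnj4, of the same branch, was at 0.00 ± 0.08 after MCAO.

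Inward rectifiers of glia are known for clearing potassium. Kcnj10, the astrocytic rectifier, had 7.81, 8.14 and 8.24 on MCAO IP arrays, 7.75, 8.04 and 8.20 on MCAO CL arrays, 7.96, 7.95 and 7.93 on sham IP arrays and 7.88, 7.88 and 7.98 on sham CL arrays. The groups overlapped, and the side difference after MCAO was 0.08 ± 0.07 (-0.07 to 0.24, 0.18 on 24 arrays), higher in 6 of 7 mice. Its partner in heteromers, Kcnj16, had 5.30, 5.37 and 6.04 on MCAO IP arrays, 5.18, 5.34 and 5.65 on MCAO CL arrays, 5.50, 4.74 and 5.76 on sham IP arrays and 5.70, 5.51 and 5.08 on sham CL arrays, and was above background on 10 of 20 arrays. Kcnj16 was at 0.18 ± 0.16 (-0.17 to 0.53, 0.21 on 24 arrays), an interval that includes 0. The astrocyte markers had a median side difference of 0.03 with 0 of 6 called.

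ATP-sensitive channels open when ATP falls. Their neuronal pore subunit Kcnj11 had 5.73, 5.92 and 6.17 on MCAO IP arrays, 5.82, 5.99 and 6.21 on MCAO CL arrays, 6.17, 6.40 and 6.20 on sham IP arrays and 6.14, 6.13 and 6.16 on sham CL arrays. MCAO sides overlapped, and the difference was -0.04 ± 0.08 (-0.20 to 0.13, -0.10 on 24 arrays), beside 0.04 ± 0.10 for the regulatory subunit Abcc8. Kcnj8, the pore subunit of vascular cells, had 4.06, 4.54 and 5.29 on MCAO IP arrays, 4.04, 4.57 and 4.94 on MCAO CL arrays, 4.12, 4.45 and 4.50 on sham IP arrays and 4.56, 4.64 and 5.24 on sham CL arrays, and was above background on 1 of 20 arrays. Its MCAO sides overlapped, with a difference of -0.00 ± 0.15 (-0.32 to 0.32, -0.17 on 24 arrays), and the partner Abcc9 was at -0.07 ± 0.10. In sham mice the side differences of Kcnj8 were -0.44, -0.19 and -0.74, and those of Kcnj11 were 0.03, 0.26 and 0.04. Among the subunits of channels opened by G proteins, Kcnj3 was at 0.06 ± 0.08, Kcnj6 at -0.08 ± 0.08 and Kcnj9 at 0.04 ± 0.09. Kcnj1, Kcnj5, Kcnj13, Kcnj14 and Kcnj15 were above background on 0 of 20 arrays, at -0.16 to 0.04.

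Shaker-type Kcna channels shape axonal and presynaptic excitability. Kcna1 had 8.46, 8.69 and 8.76 on MCAO IP arrays, 8.54, 8.74 and 8.83 on MCAO CL arrays, 8.77, 8.85 and 8.78 on sham IP arrays and 8.77, 8.79 and 8.79 on sham CL arrays, and its side difference after MCAO was -0.10 ± 0.08 (-0.27 to 0.07), with 0.0593 on 24 arrays. Kcna2, its frequent partner, had 7.46, 7.68 and 7.76 on MCAO IP arrays, 7.33, 7.70 and 7.80 on MCAO CL arrays, 7.89, 7.75 and 7.65 on sham IP arrays and 7.94, 7.52 and 7.48 on sham CL arrays, and was at -0.03 ± 0.08 (-0.20 to 0.14, 0.04 on 24 arrays). In both genes the MCAO sides overlapped and the interval included 0.

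Kcna4 codes for the A-type, fast inactivating member of that family. Its signal was 6.42, 7.17 and 7.45 on MCAO IP arrays, against 6.40, 6.69 and 7.31 on MCAO CL arrays. Sham mice had 6.67, 6.54 and 6.81 on sham IP arrays, against 6.81, 7.27 and 6.88 on sham CL arrays. Their side differences were -0.14, -0.73 and -0.07, but 1.25 in sham mouse 1, whose arrays stood apart. The IP side was higher in 5 of 7 mice after MCAO, by 0.25 ± 0.11 (0.01 to 0.49, adjusted p = 0.676), and by 0.05 on 24 arrays. Kcna3 was at 0.09 ± 0.08, Kcna6 at 0.16 ± 0.11 and Kcna5 at -0.04 ± 0.11. Kcna7 and Kcna10, at 0.28 and -0.21, were above background on 0 of 20 arrays.

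Delayed rectifier subunit Kcnb2 had 6.19, 6.44 and 6.76 on MCAO IP arrays, 6.34, 6.49 and 6.87 on MCAO CL arrays, 6.59, 6.18 and 6.67 on sham IP arrays and 6.53, 6.58 and 6.60 on sham CL arrays. It was lower on the MCAO IP side in 5 of 7 mice at -0.12 ± 0.09 (-0.31 to 0.07, -0.16 on 24 arrays). Kcnc genes code for channels of fast-spiking neurons. Kcnc1 had 8.26, 8.39 and 8.75 on MCAO IP arrays, 8.24, 8.43 and 8.51 on MCAO CL arrays, 8.70, 8.25 and 8.32 on sham IP arrays and 8.70, 8.07 and 8.54 on sham CL arrays. Kcnc2 had 6.69, 6.87 and 7.63 on MCAO IP arrays, 6.27, 6.85 and 7.40 on MCAO CL arrays, 6.79, 6.85 and 7.10 on sham IP arrays and 6.88, 6.78 and 7.21 on sham CL arrays. In both the 4 groups overlapped. Their side differences after MCAO were 0.03 ± 0.09 (-0.16 to 0.23, 0.12 on 24 arrays) and 0.11 ± 0.11 (-0.13 to 0.35, 0.37 on 24 arrays). Kcnc4, of the same family, had 6.65, 6.88 and 7.20 on MCAO IP arrays, 6.67, 7.07 and 7.28 on MCAO CL arrays, 7.10, 6.78 and 6.92 on sham IP arrays and 6.95, 6.98 and 7.06 on sham CL arrays, and was at -0.10 ± 0.08 (-0.27 to 0.08, -0.18 on 24 arrays). In all 4 genes the MCAO sides overlapped and the interval included 0.

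Kcnd subunits carry the A-type current of dendrites. Kcnd2 had 8.32, 8.54 and 8.72 on MCAO IP arrays, 8.34, 8.49 and 8.76 on MCAO CL arrays, 8.82, 8.50 and 8.34 on sham IP arrays and 8.67, 8.80 and 8.33 on sham CL arrays. All groups overlapped, and the side difference after MCAO was 0.00 ± 0.08 (-0.17 to 0.18), with 0.18 on 24 arrays. Kcnd3 had 6.95, 7.29 and 7.66 on MCAO IP arrays, 7.02, 7.34 and 7.68 on MCAO CL arrays, 8.10, 7.13 and 7.17 on sham IP arrays and 7.51, 7.32 and 7.34 on sham CL arrays, and was at -0.07 ± 0.12 (-0.32 to 0.18, -0.24 on 24 arrays), and Kcnd1 was at -0.00 ± 0.11.

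Modifier subunits form no channel alone and join Kcnb subunits. Kcnf1, the only Kcnf gene, had 7.65, 7.82 and 8.00 on MCAO IP arrays, against 7.37, 7.59 and 7.87 on MCAO CL arrays. Its sham signals were 7.23, 7.61 and 7.61 on sham IP arrays, against 7.23, 7.77 and 7.82 on sham CL arrays. The IP side was higher in 6 of 7 mice after MCAO, by 0.20 ± 0.08 (1.14-fold, 0.02 to 0.37, adjusted p = 0.647), and by 0.29 on 24 arrays. Kcng1 had 5.70, 5.90 and 6.32 on MCAO IP arrays, 5.77, 5.90 and 6.49 on MCAO CL arrays, 6.13, 5.97 and 5.87 on sham IP arrays and 6.04, 6.09 and 5.91 on sham CL arrays, and was at -0.11 ± 0.09 (-0.30 to 0.08, -0.24 on 24 arrays). The silent subunit Kcns2 had 5.46, 5.71 and 6.09 on MCAO IP arrays, 5.16, 5.94 and 6.15 on MCAO CL arrays, 5.93, 6.08 and 5.95 on sham IP arrays and 5.77, 5.71 and 5.65 on sham CL arrays, and was at -0.08 ± 0.11 (-0.32 to 0.16, -0.17 on 24 arrays). In Kcng1 and Kcns2 the MCAO sides overlapped and the interval included 0. The sham side differences of Kcns2 were 0.16, 0.37 and 0.31. Kcng2 and Kcng4 were above background on 0 of 20 arrays, and Kcng3, Kcns1 and Kcns3 were at -0.06, 0.08 and 0.04.

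Kcnq channels carry the M-current, which restrains repetitive firing. Kcnq3 had 8.06, 8.18 and 8.38 on MCAO IP arrays, 7.97, 8.16 and 8.33 on MCAO CL arrays, 8.10, 8.16 and 8.22 on sham IP arrays and 8.14, 8.16 and 7.99 on sham CL arrays. Kcnq5 had 7.83, 8.13 and 8.32 on MCAO IP arrays, 8.02, 8.13 and 8.31 on MCAO CL arrays, 8.34, 8.22 and 8.13 on sham IP arrays and 8.19, 8.33 and 8.13 on sham CL arrays. The side differences after MCAO were 0.03 ± 0.08 (-0.15 to 0.21, 0.04 on 24 arrays) and -0.04 ± 0.08 (-0.21 to 0.12, -0.01 on 24 arrays), with overlapping groups. Kcnq1 was above background on 0 of 20 arrays. The non-coding Kcnq1ot1 was above background on 4 of 20 arrays, at -0.26 ± 0.18, and transcripts that overlap at this locus may share signal.

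Tandem-pore channels set the leak current. Kcnk2, a stretch- and lipid-gated channel whose loss is known to worsen brain ischaemia in mice, had 6.55, 6.66 and 7.17 on MCAO IP arrays, 6.25, 6.58 and 7.33 on MCAO CL arrays, 6.77, 7.19 and 7.03 on sham IP arrays and 6.56, 7.14 and 6.65 on sham CL arrays. Its sides overlapped, and the difference was -0.01 ± 0.09 (-0.20 to 0.18, -0.06 on 24 arrays). Kcnk9, an acid-sensitive leak channel, had 6.61, 6.78 and 7.04 on MCAO IP arrays, 6.65, 6.95 and 7.33 on MCAO CL arrays, 6.93, 7.23 and 7.08 on sham IP arrays and 6.91, 6.88 and 7.23 on sham CL arrays. It was lower on the MCAO IP side in 6 of 7 mice, at -0.16 ± 0.10 (-0.38 to 0.06, -0.12 on 24 arrays), an interval that includes 0. Kcnk1 was at 0.04 ± 0.08 and Kcnk4 at -0.06 ± 0.09. Kcnk5 and Kcnk16, at 0.46 and 0.27, had unadjusted p-values under 0.05 but were above background on 0 of 20 arrays.

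Kcnn channels are opened by intracellular calcium. Kcnn1 had 6.14, 6.41 and 6.52 on MCAO IP arrays, 6.41, 6.63 and 6.74 on MCAO CL arrays, 6.66, 6.55 and 6.12 on sham IP arrays and 6.49, 6.30 and 6.64 on sham CL arrays. It was lower on the MCAO IP side in 5 of 7 mice, with overlapping groups, at -0.23 ± 0.11 (-0.48 to 0.01, adjusted p = 0.736) and -0.36 on 24 arrays. Kcnn2 had 7.50, 7.68 and 7.93 on MCAO IP arrays, 7.57, 7.75 and 7.95 on MCAO CL arrays, 7.58, 7.55 and 7.91 on sham IP arrays and 7.67, 7.50 and 8.02 on sham CL arrays, and was at -0.07 ± 0.08 (-0.24 to 0.10, 0.02 on 24 arrays), and Kcnn3 was at 0.03 ± 0.09. The neuronal beta subunit of BK channels, Kcnmb4, had 6.32, 6.83 and 6.93 on MCAO IP arrays, 6.43, 6.84 and 7.09 on MCAO CL arrays, 6.67, 6.92 and 7.14 on sham IP arrays and 6.72, 6.53 and 6.88 on sham CL arrays, and was at -0.09 ± 0.10 (-0.31 to 0.13, -0.26 on 24 arrays). Kcnmb1, Kcnmb2, Kcnmb3 and Kcnn4 were above background on 0 of 20 arrays.

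Across subfamilies, the median side difference after MCAO ranged from -0.13 in the 2 Kcnt genes to 0.20 in the lone Kcnf gene. It was -0.00 over 15 Kcnj genes, -0.00 over 14 Kcnk genes, 0.03 over 8 Kcna genes and -0.07 over 8 Kcnh genes.

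Partner genes outside these prefixes were read in the same fit. There were 27 measured, among them the Kcnab beta subunits, the Kcnip calcium sensors, Dpp6 and Dpp10. Of the 27, 12 were above background on 0 of 20 arrays. Side differences after MCAO were positive in 16 of 27 on 20 and on 24 arrays, and 0 passed an adjusted p of 0.05 in limma on either set. An unadjusted p under 0.05 was reached by 1 on 20 arrays, beside 7.10% of all probe sets, and by 0 on 24, beside 4.13%. The gene on 20 arrays was Kcnv1, a modifier subunit, at 0.28 ± 0.10 (adjusted p = 0.578). Kcnip3, a calcium sensor that also binds DNA, was at 0.20 ± 0.10. The median over the 27 was 0.02 on 20 arrays and 0.06 on 24.

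Between the hemispheres of sham mice, 0 of 74 members passed in limma on 20 or on 24 arrays, where 0% of all probe sets did on either set. At an unadjusted p under 0.05 there were 2 members on 20 arrays (2.70% beside 5.49% of all probe sets) and 3 on 24 (4.05% beside 6.26%). Those on 20 were Kcnh6 and Kcnk7, both above background on 0 arrays. Kcnh6 had 2.21, 2.30 and 3.02 on MCAO IP arrays, 2.31, 2.52 and 2.72 on MCAO CL arrays, 2.60, 2.83 and 2.72 on sham IP arrays and 2.02, 2.58 and 2.35 on sham CL arrays, and its sham side difference was 0.40 ± 0.16 (adjusted p = 0.863), but 0.0638 on 24 arrays. Kcnk7 had 2.86, 3.22 and 3.63 on MCAO IP arrays, 3.11, 3.33 and 3.86 on MCAO CL arrays, 3.57, 3.37 and 3.21 on sham IP arrays and 3.24, 2.95 and 2.78 on sham CL arrays, and was at 0.39 ± 0.16 (adjusted p = 0.863), and 0.52 on 24 arrays. The next in order of p had intervals that included 0, and were Kcnj8 at -0.46 ± 0.23, Kcnk10 at -0.29 ± 0.15 and Kcnk13 at 0.28 ± 0.15. On 24 arrays these 3 were at -0.31, -0.22 and 0.16. Kcnk10, a relative of Kcnk2, had 5.60, 5.75 and 6.10 on MCAO IP arrays, 5.53, 5.79 and 6.06 on MCAO CL arrays, 5.65, 5.25 and 5.62 on sham IP arrays and 5.67, 5.50 and 6.22 on sham CL arrays, so that the sham sides overlapped. Kcnk13, a channel known from microglia, had 4.14, 4.31 and 4.67 on MCAO IP arrays, 4.22, 4.30 and 4.57 on MCAO CL arrays, 4.35, 4.74 and 4.24 on sham IP arrays and 4.15, 4.28 and 4.06 on sham CL arrays. It was above background on 0 of 20 arrays, and its sham sides overlapped. The microglia markers were positive in 5 of 5 genes in the sham comparison, with a median of 0.14, and those of cerebellum in 4 of 4, with a median of 0.41, and 0 were called. Of these lists 3 of 5 and 0 of 4 genes were above background on at least 10 of 20 arrays. Summed linear signals of the microglia list were 415 to 537 on sham IP and 397 to 432 on sham CL arrays, those of the cerebellum list 55.2 to 71.5 and 36.9 to 47.2. The part of any of these lists in the sham differences was not tested. With 3 mice, the sham intervals lay within 0.3 log2 units of 0 in 7 of the 44 members above background on at least 10 arrays.

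The interaction of side and surgery asked whether the side difference after MCAO departed from that after sham surgery. In limma 0 of 74 members passed on 20 or on 24 arrays, where 0% of all probe sets did on either set. At an unadjusted p under 0.05 there were 6 members, 1 higher and 5 lower (8.11% beside 5.91%), and 3 on 24 arrays (4.05% beside 5.12%). Kcnh4 had the smallest p, at -0.51 ± 0.14 (-0.82 to -0.20, adjusted p = 0.609), and -0.40 on 24 arrays. Kcna4 was the higher one, at 0.56 ± 0.20 (adjusted p = 0.733), but at -0.0283 on 24 arrays. Kcnk7, Kcnk6, Kcnh6 and Kcnh2 were at -0.50, -0.46, -0.48 and -0.37 on 20 arrays, and at -0.72, -0.36, -0.0455 and -0.13 on 24. Of these 4 only Kcnh2 was above background on all 20 arrays. In this contrast 5 of 5 oligodendrocyte markers had values over 0, their median being 0.19, as had 4 of 4 of striatal neurons, their median being 0.15. Markers of thalamus were positive in 0 of 2 with a median of -0.24, of cerebellum in 0 of 4 with -0.33 and of hypothalamus in 0 of 4 with -0.28. Of these markers 0 were called, and those of cerebellum and hypothalamus were above background on at least 10 arrays in 0 of 4 and 0 of 4 genes. Their part in the interaction values was not tested.

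Ipsilateral hemispheres were next compared between MCAO and sham mice, which uses the MCAO IP arrays again. In limma 0 of 74 members passed on 20 arrays, beside 0.149% of all probe sets, and 0 on 24, beside 0.00450%. At an unadjusted p under 0.05 there were 5 on 20 arrays (6.76% beside 7.48%) and 1 on 24 (1.35% beside 1.01%). On the signals given above, Kcnj2 was at 0.64 ± 0.17 (0.28 to 1.00, adjusted p = 0.299), and 0.68 on 24 arrays. Kcnf1 was at 0.31 ± 0.13 and Kcnj11 at -0.31 ± 0.13, Kcnh4 at -0.41 ± 0.18 and Kcnk6 at -0.39 ± 0.18. On 24 arrays these 4 were at 0.41, -0.12, -0.22 and -0.37. MCAO IP and sham IP arrays did not overlap in 3 members, Kcnf1, Kcna1 and Kcnj11 (4.05% beside 2.38% of all probe sets). Kcna1 was at -0.16 there, but at 0.35 on 24 arrays. Endothelial markers were positive in 5 of 5 genes and striatal ones in 0 of 4, with medians of 0.18 and -0.23 and 0 called. Astrocyte markers were positive in 6 of 6 genes and microglia markers in 4 of 5, with medians of 0.05 and 0.21. Those of thalamus were positive in 0 of 2 and of hypothalamus in 0 of 4, with medians of -0.18 and -0.19, and 0 were called. Summed linear signals of the endothelial list spanned 520 to 626 on MCAO IP and 388 to 466 on sham IP arrays. The part of any of these lists in the channel values was not tested.

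**Figure D3:**
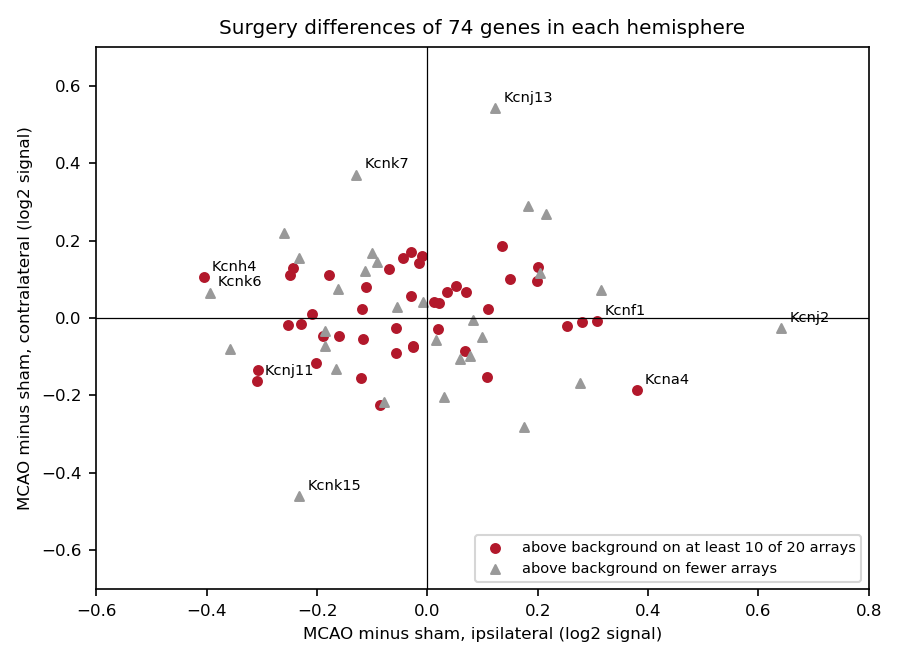
Differences between MCAO and sham mice (log2 signal) of the 74 channel genes, in ipsilateral hemispheres on the x axis and contralateral hemispheres on the y axis, on 20 arrays. Red circles are genes above background on at least 10 of 20 arrays and grey triangles the others. Kcnj2 at 0.64 lies farthest right and Kcnj13 at 0.54 highest, and both are triangles.

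Between the contralateral hemispheres of MCAO and sham mice, 0 of 74 members passed in limma on 20 or on 24 arrays, where 0% of all probe sets did on either set. On 20 arrays 3 had an unadjusted p under 0.05 (4.05% beside 4.59%), and on 24 arrays 0 (beside 0.365%). The smallest p was that of Kcnj13, a rectifier of choroid plexus and other epithelia. Its signal was 4.32, 4.44 and 4.67 on MCAO CL arrays, above the 3.98, 3.90 and 3.92 of the sham CL arrays with no overlap, while the IP arrays had 3.86, 4.20 and 5.14 after MCAO and 4.32, 4.45 and 3.80 after sham surgery. The contralateral difference was 0.54 ± 0.12 (adjusted p = 0.988), but -0.122 on 24 arrays. Kcnj13 was above background on 0 of 20 arrays, and the choroid plexus markers had summed linear signals of 77.8 to 113 on MCAO CL and 84.4 to 105 on sham CL arrays. Endothelial markers were positive in 5 of 5 genes and striatal ones in 0 of 4 in this comparison, with medians of 0.26 and -0.31. Microglia markers were positive in 5 of 5, astrocyte markers in 5 of 6 and oligodendrocyte markers in 2 of 5, with medians of 0.25, 0.16 and -0.09. Of all these markers 0 were called, and their part was not tested. In 1 of 74 members the groups did not overlap (1.35% beside 1.38% of all probe sets).

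The other members with the smallest contralateral p were dim or had intervals that included 0. Kcnk15, a tandem-pore gene, had 3.18, 3.40 and 4.09 on MCAO IP arrays, 2.96, 3.41 and 3.85 on MCAO CL arrays, 3.78, 3.31 and 4.04 on sham IP arrays and 3.69, 4.07 and 3.72 on sham CL arrays, at -0.46 ± 0.17, and -0.58 on 24 arrays. Kcnk7, above, was at 0.37 ± 0.16, and 0.36 on 24 arrays. Both were above background on 0 of 20 arrays, and MCAO CL and sham CL arrays overlapped. Modifier Kcng2 had 3.27, 3.58 and 3.93 on MCAO IP arrays, 3.25, 3.60 and 4.05 on MCAO CL arrays, 3.55, 3.16 and 3.29 on sham IP arrays and 3.41, 3.05 and 3.57 on sham CL arrays, at 0.27 ± 0.17, and 0.28 on 24 arrays. Acid-sensitive Kcnk3, above background on 7 of 20 arrays, had 4.89, 5.29 and 5.47 on MCAO IP arrays, 4.97, 5.30 and 5.53 on MCAO CL arrays, 5.21, 5.61 and 5.18 on sham IP arrays and 5.32, 5.68 and 5.58 on sham CL arrays, at -0.22 ± 0.14, and -0.15 on 24 arrays.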

How the data were processed

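RNA of 24 hemispheres of 12 mice was measured on Affymetrix whole-transcript arrays. The authors deposited log2 probe-set signals, and the submitters' processing notes name Affymetrix Expression Console. The sources used here state neither its version nor the normalization nor the build, and the log2 scale is inferred from the values. Of 29129 rows, 6923 array controls were left out and 22206 were tested. Symbols came from the platform annotation, and 74 of 74 members matched a RefSeq gene.

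Tests used limma 3.58.1 in R 4.3.3 (lmFit, eBayes), with mouse as a fixed block in the side comparisons because the labels give both hemispheres of an animal. In 10 mice the hemispheres' deviations from the group means correlated at 0.112 to 0.307, against a median of -0.02 between mice. Equal mouse numbers across surgery groups pair nothing. Benjamini-Hochberg adjustment ran over all probe sets of a comparison. The 4 arrays that stood apart were left out of the main fits and returned in an alternative. The members, lists, that choice and the naming rule were set with earlier results of these data known. By the rule, values per sample go to members past the threshold, to the member with the greatest moderated t in each subfamily among those above background on at least 10 of 20 arrays, to the 5 smallest p in each other comparison and to genes of known brain roles. Other members are given by their difference, and Kcnv1 and Kcnip3 were named after their values were seen. The fits were tested on simulated data. Other alternatives were eBayes trend and robust settings, median centring, a filter on dim probe sets, array weights, quantile normalization, other treatments of the mouse block, probe-set means and leaving out each mouse.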

Additional observations from a re-analysis of the deposited data

Results flagged for a closer look

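In groups of 7 MCAO mice, 108 sets of values of the described genes were searched for 1 mouse lying far from the rest. There were 9 such sets (8.33%), where chance gives about 5%. The sets came from the same mice, and side differences from the same signals, so they were not independent. Whether 9 is more than chance gives was not tested. Mouse 5 was the distant one in 5 of the 9.

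On MCAO IP arrays, mouse 5 had a signal of 7.63 (others 6.69 to 7.06) for Kcnc2, a channel gene of fast-spiking neurons, and of 7.81 (others 8.07 to 8.24) for the astrocytic Kcnj10, and mouse 2 had 7.40 (others 7.59 to 7.73) for Kcnt1. On MCAO CL arrays, mouse 5 had 8.54 (others 8.71 to 8.83) for Kcna1, 4.57 (others 4.22 to 4.37) for Kcnk13 and 3.86 (others 3.11 to 3.43) for Kcnk7, and mouse 8 had 7.33 (others 7.64 to 7.80) for Kcna2. In the side difference, mouse 1 was at 0.39 (others -0.33 to -0.13) for Kcnk9 and at 0.41 (others -0.10 to 0.05) for Kcnq3. Kcnk13 and Kcnk7 were above background on 0 of 20 arrays.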

How the results depend on the processing

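The count of 0 members called in each of the 5 comparisons held under every alternative run, leaving out each mouse included, with 1 exception. Leaving out dim probe sets gave 1 call, Kcnh4 in the MCAO side comparison (adjusted p = 0.00689), at the same difference. There 9996 probe sets in place of 22206 were adjusted for, and the moderated SE was 0.0683 in place of 0.0775. The difference of Kcnh4 was -0.44 to -0.37 without each mouse in turn (adjusted p = 0.0851 to 0.306) and -0.40 to -0.23 over the other alternatives. With no replicate block, that is with the pairing of hemispheres ignored, the side comparisons gave 0 calls and a median over members of -0.04 in MCAO mice. On all 24 arrays the median over members was -0.0335 in the sham side comparison (0.02 on 20 arrays), 0.0545 in the interaction (-0.05 on 20), 0.068 between ipsilateral hemispheres (-0.03 on 20) and 0.124 between contralateral ones (0.02 on 20). There Kcna1 was at 0.0593 in the MCAO side comparison, Kcna4 at -0.0283 in the interaction and Kcnj13 at -0.122 between contralateral hemispheres, each opposite in sign to its value on 20 arrays, where it exceeded its SE. Over all 74 members, the sign on 24 arrays was the opposite in 15 in the MCAO side comparison, 28 in the sham one, 20 in the interaction, 26 between ipsilateral and 31 between contralateral hemispheres. Of the members whose difference on 20 arrays exceeded its SE, these were 4 of 31, 6 of 23, 7 of 28, 9 of 30 and 5 of 17 in the same order. The cause was not tested. The number of arrays, above all the 3 sham mice, limits the precision, and 23 of 74 members were above background on 0 of 20 arrays.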

Other observations

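The 4 arrays left out of the main fits differed from the rest in the channel genes as well. In 35 of 74 members all 4 lay below the range of the other 20 arrays, and in 14 all 4 lay above it. Kcnd2 was at 4.68 to 7.54 on the 4 and 8.32 to 8.82 on the 20, and Kcnc1 at 4.71 to 5.91 on the 4 and 8.07 to 8.75 on the 20. Kcnj13, above background on 0 of the 20, was at 7.42 to 8.43 on the 4 and 3.80 to 5.14 on the 20, and Kcnk6 at 6.43 to 7.47 on the 4 and 4.35 to 5.42 on the 20. The background level was higher on these 4 arrays, at 7.41 to 7.61 against 5.17 to 5.74 on the 20. Kcnj13 was above it on 2 of the 4 and Kcnk6 on 1. In all, 5 of 74 members were above background on at least 1 of the 4.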
